A study of Mus musculus with 12 samples.

Results

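The genes described here encode the proteins of the cytosolic ribosome, in femoral bone marrow of male ICR mice, an outbred strain, sequenced by RNA-seq. They were chosen by name: 84 of the 34745 genes in the deposited table carry a name made of Rpl or Rps and a number, with or without a closing letter and number, or are named Rplp0, Rplp1, Rplp2 or Rpsa. Of these, 51 belong to the large and 33 to the small subunit. Names of marked pseudogenes, 21 in the table, were left out. The 12 libraries come from 4 groups of 3 mice. The normal group received saline only. The model group received saline by mouth and 80 mg/kg of cyclophosphamide daily on days 5 to 7, injected intraperitoneally. Cyclophosphamide is an alkylating drug that is toxic to proliferating cells. In the QJSB group this was combined with Qi-Jing-Sheng-Bai granule, a formula of Chinese medicine, at 3 g/kg per day for 1 week, and in the leucogen group with leucogen, a drug used against low leucocyte counts, at 20 mg/kg per day. No group received QJSB or leucogen without cyclophosphamide. The column headings of the table name 3 of the groups only indirectly, and how they were assigned is given under the processing.

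A ribosome joins a small subunit, which reads the mRNA, to a large subunit, which forms the peptide bond, and each is a core of ribosomal RNA dressed with proteins. Most of the proteins are needed in equal numbers, and their mRNAs are among the most abundant of dividing cells. Many of these mRNAs begin with a run of pyrimidines through which growth signals set their translation. Blood formation is known to be sensitive to their supply: loss of a single copy of certain members causes Diamond-Blackfan anaemia, in which red cell precursors fail. Because whole marrow was measured, fewer cells of a type and less RNA per cell cannot be told apart in any value below.

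The level of the 84 genes, which include paralogs of limited tissue range, spanned a wide range. FPKM, the authors' count of fragments relative to transcript length and library size, averaged over the 12 libraries from 0 to 716 with a median of 25.5. It was under 10 for 30 genes and over 100 for 21. The 5 highest were Rps3a1 at 716, Rpl4 at 644, Rps25 at 590, Rpsa at 587 and Rpl13a at 560 mean FPKM. At the low end, Rpl10l was listed at 0 and Rpl39l at 0.0135 mean FPKM, both known as genes of the testis, followed by the muscle gene Rpl3l at 0.273, Rps4l at 0.522 and Rpl9 at 0.628. Rpl9 encodes a regular protein of the large subunit.

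Features of the sequence and of the length implied by the FPKM values stand beside these levels. Ribosomal protein mRNAs have many processed copies in the genome, and 80 of the 83 members with an annotated mRNA shared at least 1 stretch of 50 bases with another annotated gene, with a median of 9 such genes. The share of 50-base words of the mRNA that occur in no other annotated gene ran from 1.35% for Rps27 to 100%, with a median of 44.5%. The 31 expressed members with at least 50% unique words had a median FPKM of 45.4, and the 49 with fewer had 19.5. Across these 80 genes, which are not independent replicates, Spearman's rho between the unique share and the level per kilobase of mRNA was 0.32. The length implied by the FPKM values, the counts and the library totals was 3.39 times that of the main mRNA in the median. It ran from 0.656 to 18.6 times at the extremes, with 16.1 times for Rpl9. For Rpl10 it was 5156 bases, longer than the gene at chrX:74270812-74273135, so it cannot be read as a transcript length. The annotation used here for the sequence features was GENCODE M21 on GRCm38. The sources used here do not give the annotation behind the deposited counts. They also do not say how the authors' counting treated reads that match several genes. Differences in level between members are therefore uncertain, and the part of shared sequence in them was not tested. Comparisons of 1 gene between groups use the same length in every library.

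**Figure D1:**
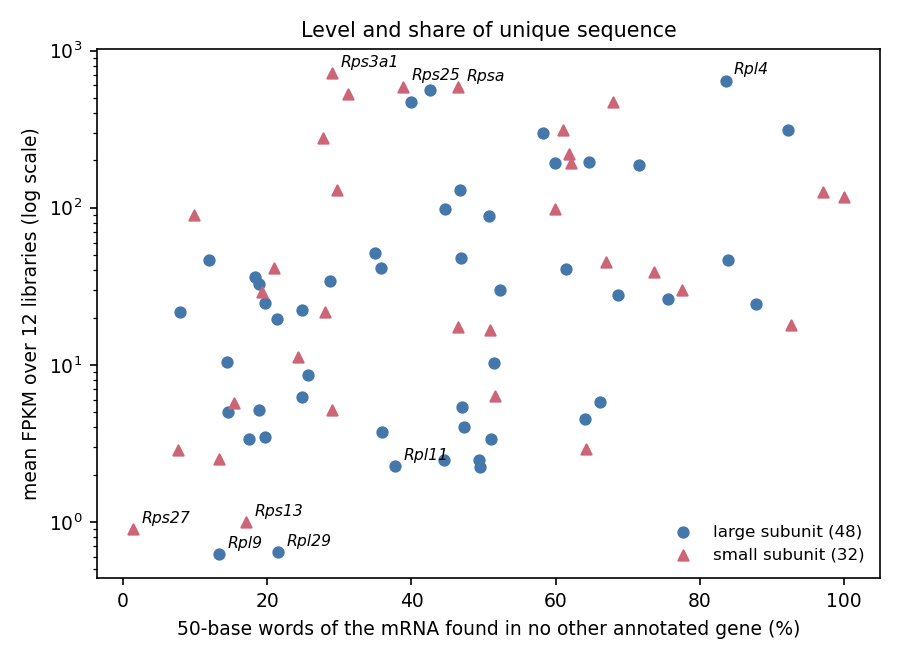
Mean FPKM over 12 libraries (log scale) of 80 ribosomal protein genes, against the percentage of 50-base words of the mRNA found in no other annotated gene, with circles for the large and triangles for the small subunit. Rps27, with 1.35% unique words, and Rpl9 lie at the bottom left, while Rpl4 at 644 FPKM lies at the top right. Rps3a1 has the highest mean FPKM, 716, with 29.0% unique words.

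The starts of 7 of these genes are shown for the pyrimidine run by which mRNAs of this family are known. They were chosen after values were seen: Rpl7a, Rpl14, Rpl4 and Rps26 from genes that were lower in leucogen than in model, and Rps24, Rpl35 and Rpl13a from genes that did not pass that test. Each line gives 15 bases before and 15 bases from the annotated start, on the gene's own strand in GRCm38.p6 from RefSeq. Capitals mark the longest unbroken run of C and T that reaches within 5 bases of the start. The run of Rpl4 ends before the start, and those of Rps26 and Rpl13a begin after it. The runs of Rpl4 and Rpl13a go on beyond the bases printed.
Rpl7a, chr2:26910792-26910821, plus strand: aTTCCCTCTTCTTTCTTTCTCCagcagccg
Rpl14, chr9:120571502-120571531, plus strand: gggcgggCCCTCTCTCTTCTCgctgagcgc
Rpl4, chr9:64173372-64173401, plus strand: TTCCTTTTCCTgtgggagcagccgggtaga
Rps26, chr10:128626492-128626521, minus strand: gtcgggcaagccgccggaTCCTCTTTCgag
Rps24, chr14:24490663-24490692, plus strand: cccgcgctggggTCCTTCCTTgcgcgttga
Rpl35, chr2:39005117-39005146, minus strand: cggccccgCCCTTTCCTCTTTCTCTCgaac
Rpl13a, chr7:45128731-45128760, minus strand: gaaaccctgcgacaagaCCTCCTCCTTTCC
A run of at least 8 bases within 5 bases of the start was present for 21 of the 63 members found in the promoter table, or 33.3%, against 9.63% of all 27025 genes there. In the window from 250 bases before to 50 after the start, on either strand, the letters CCGGAAG were found for 25 members (39.7%) against 9.12% of all genes, AAGATGG for 9 (14.3%) against 6.48%, and TATAAA for 6 (9.52%) against 14.2%. Of the members tested, with Rpl26 left out, 6 of 21 with a run of 8 or more were called between model and normal. With a shorter run it was 13 of 38, where 19.7% of all genes were higher in model. All 7 starts shown above have a run of at least 8 bases, and no member with a shorter run is shown. Among them, Rpl7a with a run of 21 bases was called between model and normal, and Rpl35 with 18 was not.

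The share of all counts that fell on the 84 genes was highest in the model group and lowest in the normal and leucogen groups. It was 1.15%, 1.17% and 0.996% in normal 1, 2 and 3, then 1.63%, 1.70% and 1.65% in model. It was 1.54%, 1.50% and 1.47% in QJSB and 1.05%, 1.13% and 1.11% in leucogen. No library of model overlapped with another group, QJSB lay between model and the other groups, and the leucogen libraries lay within the range of normal. The means were 1.10% ± 0.0934 (SD, n = 3) in normal, 1.66% ± 0.0393 in model, 1.50% ± 0.0315 in QJSB and 1.10% ± 0.0374 in leucogen. Model was thus 1.51 times normal, QJSB 0.905 times model and leucogen 0.660 times model. QJSB was 1.36 times normal and 1.37 times leucogen, and leucogen was 0.994 times normal. In an exact two-sided permutation test, leucogen against normal gave p = 0.9. The same exact permutation test gave p = 0.1 (adjusted over 6 comparisons 0.12) in the other 5, which is the smallest that 3 libraries against 3 allow, so no comparison of the share could pass 0.05.

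In both subunits model was highest, QJSB next, and normal and leucogen lowest and close to each other. The large subunit held 0.515% of counts in normal, 0.814% in model, 0.747% in QJSB and 0.519% in leucogen as group means, and the small subunit 0.588%, 0.847%, 0.756% and 0.577%. The counts were uneven among members, with Rpsa, Rpl4, Rplp0, Rps3 and Rps3a1 together at 32.6% of them. The 77 genes of mitochondrial ribosomal proteins, measured in the same way, held 0.138% in normal, 0.194% in model, 0.171% in QJSB and 0.136% in leucogen.

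**Figure D2:**
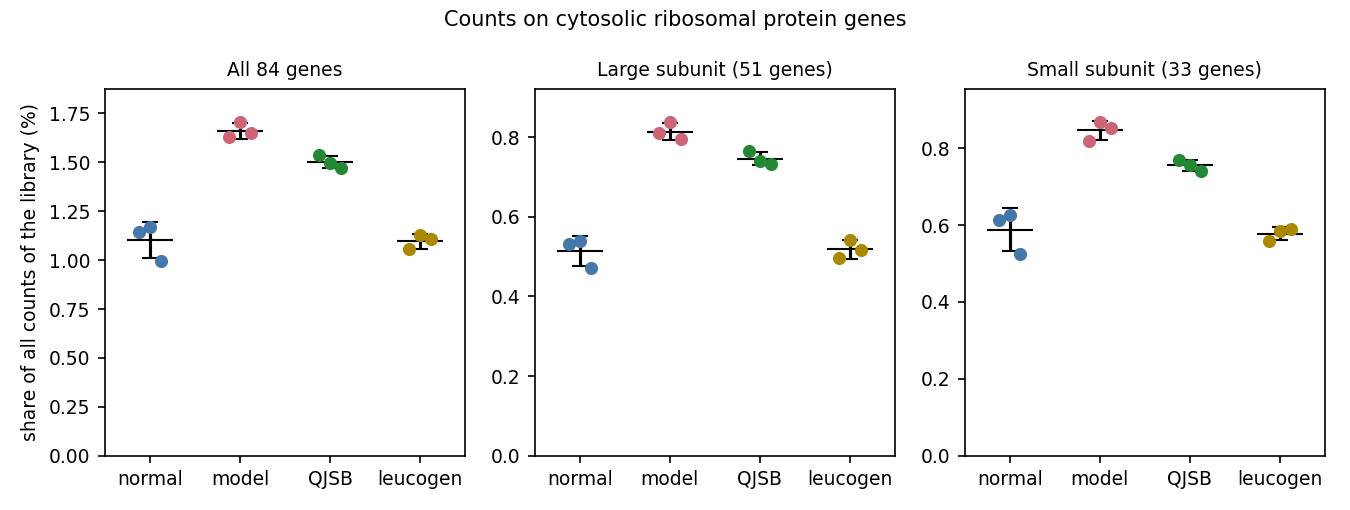
Percentage of all counts of a library that fell on the 84 ribosomal protein genes and on those of the large (51) and small (33) subunit, with a point for each library and the mean ± SD of 3 libraries as a bar. In the left panel model lies from 1.63% to 1.70%, QJSB from 1.47% to 1.54%, and normal and leucogen overlap at 1.17% or less.

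Other features moved with the groups. The noncoding gene Gm26917 took 1.86% of counts in normal, 4.14% in model, 4.15% in QJSB and 1.52% in leucogen, and leaving it and the mitochondrially encoded genes out of the total gave a log2 ratio of 0.50 between QJSB and leucogen in place of 0.45. The cell types of the marrow differed as well, as summed CPM (counts scaled to library size by edgeR's TMM method) of fixed marker lists. The 15 erythroid markers summed from 19240 to 23940 in normal and from 202 to 1957 in the 9 libraries with cyclophosphamide, and the 10 markers of mature B cells from 1983 to 2081 in normal and from 43.9 to 155 in the others. The 8 promyelocyte markers summed from 1089 to 1336 in normal, 7392 to 10320 in model, 9274 to 9831 in QJSB and 4948 to 5820 in leucogen. The markers of late neutrophils summed from 25600 to 28830 in normal, 9698 to 31240 in model, 11400 to 51560 in QJSB and 65070 to 83540 in leucogen. The 20 genes of dividing cells summed from 10300 to 10650 in normal and from 4799 to 7019 in the others. None of these lists had a gene at 0 in every library, and the part of cell composition in the ribosomal values was not tested.

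Between model and normal, 81 members passed edgeR's filter on low counts and 28 were higher in model, with 0 lower, at an adjusted p under 0.05 (quasi-likelihood test of edgeR, with p adjusted by Benjamini-Hochberg over all 14752 genes tested). The same call was made for 19.7% of all genes upward and 21.9% downward. The log2 fold change was above 0 for 78 of the 81, with a median of 0.43 against 0.02 over all genes. The groups did not overlap for 46 members, all higher in model, where 26.9% of all genes were apart in that direction and 28.6% in the other. In DESeq2, 29 members were called. Leaving out 1 library gave 18 calls (without normal 3) to 30, and 18 of the 28 members were called in every such fit.

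Rps2 and Rpl6 were among the members with the largest rises that passed the test. Rpl6 of the large subunit was at 177, 155 and 146 CPM in normal, 279, 288 and 325 in model, 278, 321 and 305 in QJSB and 118, 150 and 129 in leucogen. Model and QJSB lay far above the other groups, and the rise in model was 0.90 (SE 0.13, adjusted p = 0.000839). Rps2, at the entry of the mRNA channel, rose by 0.94 (SE 0.19, adjusted p = 0.00508), from 133 CPM ± 10.5 to 254 ± 68.8 (SD, n = 3). Also at the top were Rpl26, which jumped between libraries and is described at the end, and Rps4l, whose groups did not overlap either, at 1.13 (SE 0.46, adjusted p = 0.0805).

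The members at the other end stayed near their level in normal. Rpl15, of the large subunit, was at 26.2, 29.5 and 22.7 CPM in normal, 23.2, 26.3 and 21.8 in model, 23.5, 19.5 and 16.7 in QJSB and 18.1, 16.1 and 17.2 in leucogen. Normal and model overlapped, with a log2 fold change of -0.14 (SE 0.16, adjusted p = 0.528), while leucogen lay below all of the normal and model libraries. Rps23, which sits at the decoding centre, gave -0.13, Rpl21 -0.04, Rps27 0.02 and Rpl3, near the peptidyl transferase centre, 0.10, none past the test (smallest adjusted p 0.528, that of Rpl15). The fold changes varied among members, and the middle 50% of log2 fold changes lay between 0.23 and 0.71.

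**Figure D3:**
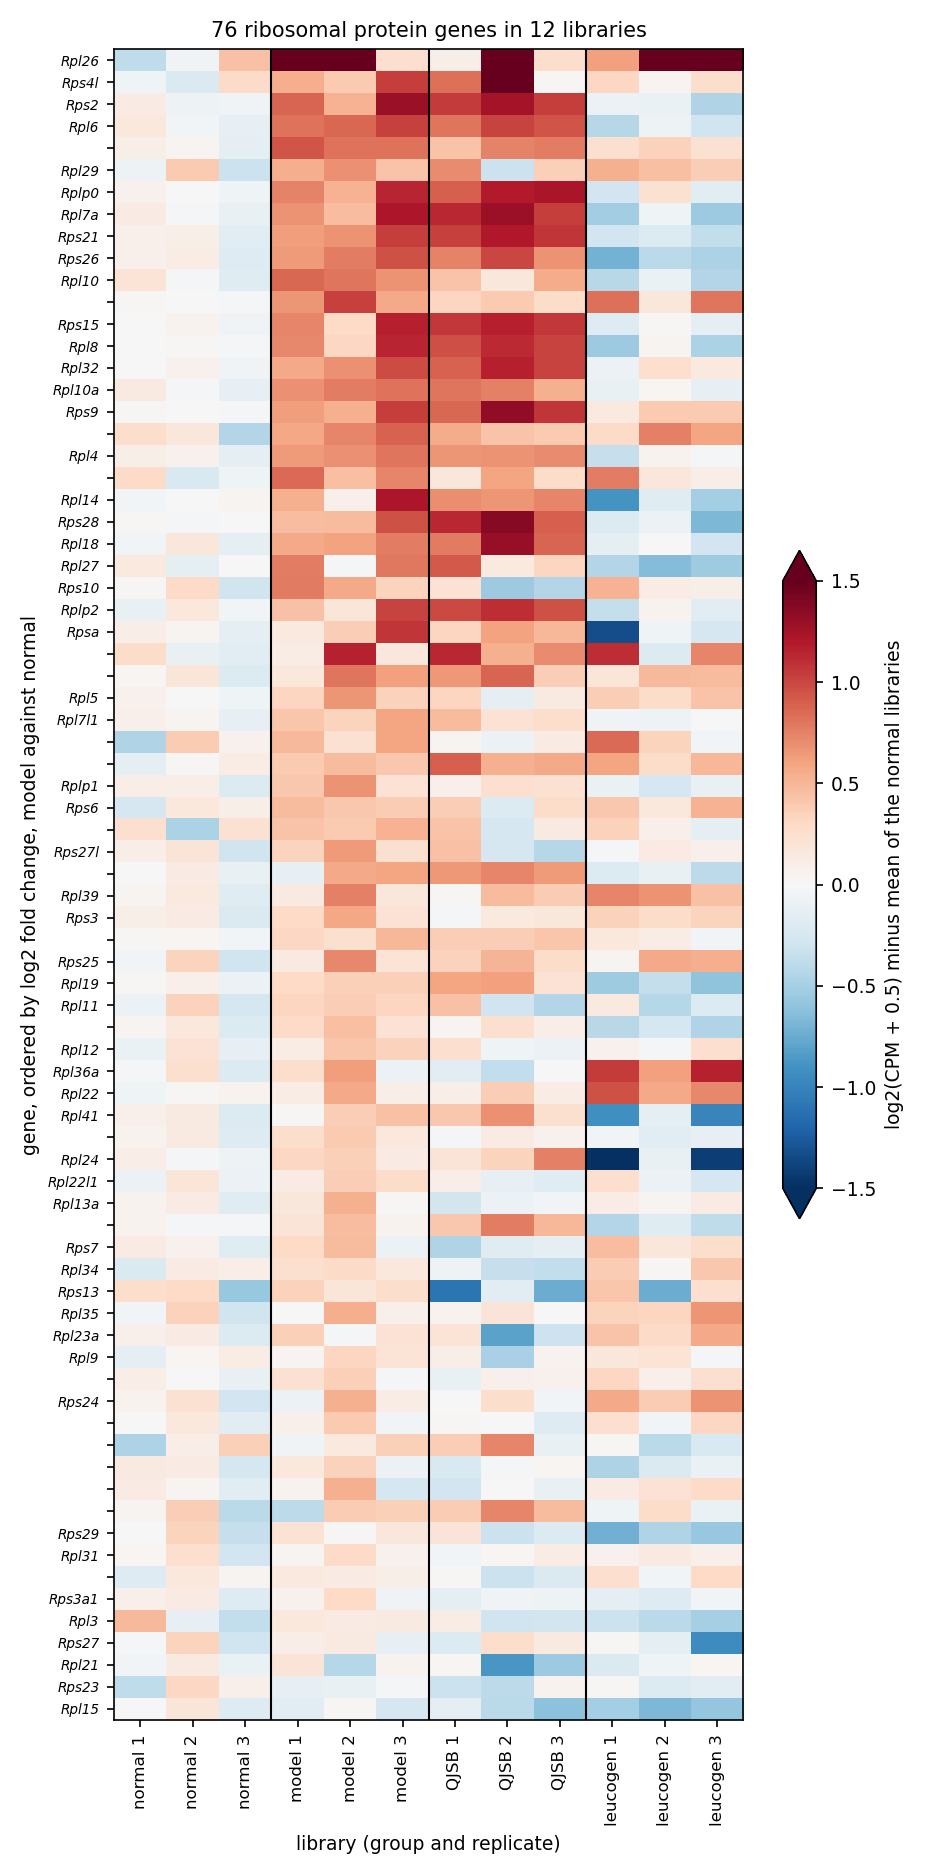
Difference of log2(CPM + 0.5) from the mean of the normal libraries for 76 of the 81 members tested, in rows ordered by the log2 fold change of model against normal, and the 12 libraries in columns, with colours ending at 1.5 in either direction and the genes named in the text labelled. The top row, Rpl26, is red in model 1 and 2, QJSB 2 and leucogen 2 and 3. Most of the upper rows below it are red in model and QJSB and pale or blue in leucogen. The lower rows, down to Rpl15, stay pale in most libraries.

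Leucogen was then compared with model, which asks what the drug changed in mice given cyclophosphamide. Of 81 members tested, 28 were lower in leucogen and 0 higher (edgeR, adjusted p under 0.05), where 13.3% of all 14184 genes were lower and 13.8% higher. The median log2 fold change was -0.35, against -0.05 over all genes, and 15 members were above 0. The groups did not overlap for 41 members lower and 1 higher in leucogen, beside 23.8% and 22.2% of all genes. The count rested on the leucogen libraries, with 12 members called without leucogen 1 and 10 without leucogen 3, and 10 of the 28 were called in every fit that left out 1 library.

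Rps26, which lies at the mRNA exit and is mutated in Diamond-Blackfan anaemia, fell most. It was at 68.9, 70.6 and 57.1 CPM in normal, 102, 111 and 127 in model, 110, 131 and 105 in QJSB and 39.7, 49.3 and 46.6 in leucogen. The leucogen libraries lay below every other library, and those of model and QJSB above every other. The log2 fold change of leucogen against model was -1.32 (SE 0.15, adjusted p = 0.00177), and it was called in every fit with 1 library left out. Rpl14, whose start carries 1 of the runs shown, was at 64.4, 66.4 and 68.6 CPM in normal, 96.2, 70.0 and 155 in model, 108, 106 and 111 in QJSB and 35.6, 58.5 and 46.5 in leucogen. Its model libraries were widely spread, and the fall of 1.19 on the log2 scale (SE 0.30, adjusted p = 0.0251) was lost without leucogen 1 or leucogen 3 (largest adjusted p 0.0915).

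Rpl7a, whose start has the longest of the runs shown, was at 77.5, 70.4 and 65.9 CPM in normal, 114, 98.2 and 165 in model, 156, 174 and 146 in QJSB and 49.5, 68.3 and 48.7 in leucogen. No library of leucogen reached those of model or QJSB, and the fold change against model was -1.17 (SE 0.22, adjusted p = 0.00714). Rpl6 gave -1.16 (SE 0.14, adjusted p = 0.00202) and Rps2 -1.13 (SE 0.20, adjusted p = 0.0064). Rpl27 gave -1.18 (SE 0.28, adjusted p = 0.0163), a call lost without any of the leucogen libraries or model 1 (largest adjusted p 0.0672). Rpl24, at 13.8, 43.0 and 17.1 CPM in leucogen against 50.4 to 59.5 in model, gave -1.18 with an SE of 0.40 and did not pass (adjusted p = 0.0697). Its leucogen libraries lay below model but were far apart among themselves.

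The opposite end of the same comparison held members that were not lower in leucogen. Rpl36a, at the site where the deacylated tRNA leaves, was at 11.3, 13.7 and 9.92 CPM in normal, 13.9, 18.1 and 10.8 in model, 10.3, 8.85 and 11.5 in QJSB and 24.5, 17.9 and 26.3 in leucogen. Its leucogen libraries lay above all others but for model 2, and the log2 fold change against model was 0.69 (SE 0.24, adjusted p = 0.0573). Rpl22, a protein known to be needed for T cell development, was at 126, 134 and 137 CPM in normal, 144, 196 and 142 in model, 142, 171 and 143 in QJSB and 258, 197 and 218 in leucogen. The leucogen libraries were the 3 highest, at 0.49 (SE 0.17, adjusted p = 0.0644) against model. Rps24 gave 0.34, Rpl23a 0.27 and Rpl39 0.24, none past the test (smallest adjusted p 0.19, that of Rps24).

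QJSB was compared with model in the same way. By edgeR, 0 of 81 members passed the adjusted threshold, as did 0.0% of all 14486 genes. DESeq2 also called 0 members. At an unadjusted P under 0.05 there were 8 members, 2 higher and 6 lower in QJSB, beside 723 of all genes. The cutoff of the study, which joins a minimum fold change to an unadjusted P, was met by 3 members, beside 3.08% of all genes. The median log2 fold change of the members was -0.14 and that of all genes -0.02, and 18 members were apart and lower and 3 apart and higher, where 5.3% and 4.5% of all genes were.

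The lowest were Rps13, with 11.0, 9.71 and 10.3 CPM in model and 3.70, 7.52 and 4.87 in QJSB, and Rps10, with 13.2, 11.3 and 9.58 in model and 8.75, 4.98 and 5.36 in QJSB. Both belong to the small subunit, and their groups did not overlap. The log2 fold changes were -0.96 (SE 0.30) and -0.85 (SE 0.29), each with an adjusted p of 0.767. Rpl34 followed at -0.52 and Rps7 at -0.51, while Rpl26 gave -1.63 with an SE of 2.03. Toward the upper end stood Rps28 at 0.48, Rplp2 at 0.42 and Rps4l at 0.39. None of these values passed, with adjusted p of 0.767 or above. A p that misses the threshold does not show that the groups were alike, and Rpl6, for instance, had an SE of 0.15.

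QJSB against normal and leucogen against normal show the treated groups beside untreated marrow, and they share the normal libraries with model against normal. In QJSB, 32 of 81 members were higher than in normal and 0 lower, where 22.1% and 23.2% of all genes were, with a median of 0.37. The groups were apart for 38 members, all higher in QJSB, beside 28.1% of all genes higher and 29.9% lower. Rps28 gave 1.18 (SE 0.15, adjusted p = 0.000693) and Rpl7a 1.17 (SE 0.12, adjusted p = 0.000253). Both were called in every fit with 1 library left out, as were 22 of the 32 in all.

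In leucogen, 16 of 80 members were higher and 7 lower than in normal, where 25.7% and 26.6% of all genes were, and the median was 0.02. The groups were apart for 18 members higher and 12 lower, beside 29.5% and 32.2% of all genes. Without leucogen 3 there were 10 calls and without normal 1 there were 15. With total counts in place of TMM the calls were 13 higher and 11 lower, so their balance depends on the scaling. Among the highest, besides Rpl26, were Rpl36a at 0.99 (SE 0.18, adjusted p = 0.00127) and Rpl22 at 0.78 (SE 0.11, adjusted p = 0.000232), each called in every fit that left out 1 library. Rpl29 gave 0.72 with an SE of 0.45 on at most 23 counts per library. The lowest were Rpl24 at -0.89, Rps29 at -0.72 and Rpl41 at -0.62, none past the test (adjusted p from 0.0732 to 0.166). Rpl15 gave -0.59 (SE 0.13, adjusted p = 0.00425), and Rpl27 gave -0.57 (SE 0.20, adjusted p = 0.0336), a call lost without leucogen 2, leucogen 3, normal 1 or normal 3 (largest adjusted p 0.116). Leucogen, with a summed share that overlapped with that of normal, had members called on either side of normal. At 20% higher and 8.75% lower, both shares were below those of all genes.

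QJSB against leucogen shares no library with model against normal, so these comparisons may be set side by side. Of 81 members, 27 were higher and 4 lower in QJSB than in leucogen, where 15.5% and 13.8% of all genes were, with a median of 0.20. The groups were apart for 37 members higher and 11 lower, beside 25.6% and 23.2% of all genes. Without leucogen 1 there were 20 calls. The largest were Rpl7a at 1.50 (SE 0.16, adjusted p = 0.00285), Rps28 at 1.45 (SE 0.20, adjusted p = 0.00328), Rps21 at 1.38 (SE 0.12, adjusted p = 0.00272) and Rps26 at 1.33 (SE 0.15, adjusted p = 0.00285). The 4 lower genes were Rpl36a at -1.18 (SE 0.21, adjusted p = 0.00582), Rpl22 at -0.58, Rps7 at -0.57 and Rps24 at -0.48, of which Rpl36a was called in every fit with 1 library left out. The others were not, with largest adjusted p of 0.0874, 0.0868 and 0.16 without single libraries of leucogen, and for Rpl22 and Rps24 also without QJSB 3.

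Of the 28 members higher in model than in normal, 19 (67.9%) were among the 27 higher in QJSB than in leucogen (70.4% of those). Among them were Rpl10, Rpl10a, Rpl18, Rpl32, Rpl4, Rpl6, Rpl7a, Rpl8, Rplp0, Rps15, Rps2, Rps21, Rps26, Rps28 and Rps9. Over all 13965 genes tested in both comparisons, 956 were higher in both, 32.9% of the former and 43.3% of the latter. Pearson's r between both sets of log2 fold changes was -0.043 across the 81 members and 0.55 without Rpl26, against 0.26 over all genes. Spearman's rho was 0.47 across the 81 members and 0.32 over all genes. QJSB against normal and leucogen against model share no library either. There, 22 members were higher in the former and lower in the latter, 68.8% of 32 and 78.6% of 28. Over all 13953 genes it was 898, or 27.6% and 47.7%. Pearson's r was -0.38 across the 81 members, -0.57 without Rpl26 and -0.17 over all genes, and rho was -0.57 across the members and -0.26 over all genes. These are correlations across genes, which are not independent replicates and share their libraries within each comparison. The GC content of transcripts stood beside them. Its r over all genes was 0.07 to the fold change of model against normal and 0.49 to that of QJSB against leucogen. Among the members without Rpl26 it was 0.23 and 0.31. Another fit removed the GC trend of each library, which also reset the scale set by TMM by re-centring each library's mean log level. It moved the median of all genes in model against normal from 0.024 to 0.24. In that fit 51 members were higher in model than in normal, and 21 were higher and 9 lower in QJSB than in leucogen. The shares of all genes called in that fit are not reported here, so these counts have no background beside them.

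**Figure D4:**
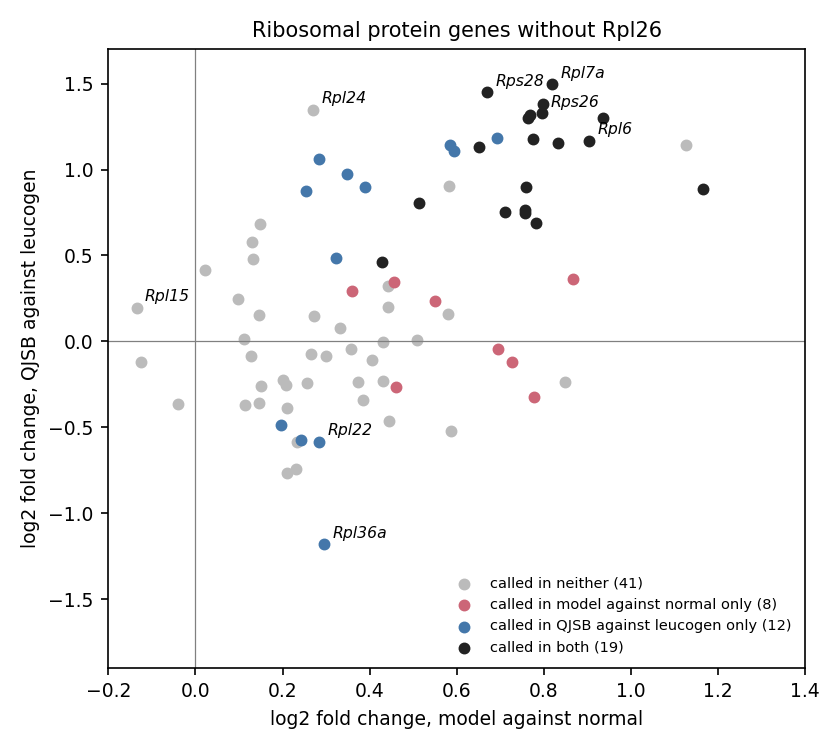
Log2 fold change of model against normal (horizontal) and of QJSB against leucogen (vertical) for 80 ribosomal protein genes without Rpl26, coloured by the calls at an adjusted p under 0.05. The 19 genes called in both lie at the upper right, Rpl7a and Rps28 highest among them, while Rpl36a and Rpl22 lie below 0 on the vertical axis.

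Grouped by role, the stalk that recruits translation factors comes first. Rplp0, its scaffold, was at 593, 565 and 543 CPM in normal, 953, 814 and 1254 in model, 1053, 1292 and 1327 in QJSB and 463, 665 and 503 in leucogen. Model and QJSB lay above all libraries of normal and leucogen, and Rplp0 rose by 0.83 (SE 0.17, adjusted p = 0.00514) in model against normal. In leucogen against model it gave -0.88 (SE 0.21, adjusted p = 0.015), a call lost without leucogen 1 or leucogen 3 (largest adjusted p 0.0772). Of the 4 stalk genes, 1 was higher in model than in normal and 3 were lower in leucogen than in model, where 19.7% and 13.3% of all genes were. Rplp1 and Rplp2, which bind to Rplp0 as pairs, were the others, at -0.59 (SE 0.15, adjusted p = 0.0219) and -0.72 (SE 0.21, adjusted p = 0.0358), and both calls were lost without any of the leucogen libraries and for Rplp2 also without model 1 or model 3 (largest adjusted p 0.133). Rpl12, which forms the base of the stalk with Rplp0, gave 0.30 in model against normal and did not pass.

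Rpl5 and Rpl11 carry the 5S ribosomal RNA and, when not built into ribosomes, are known to bind Mdm2 and stabilize p53. Rpl5 was at 47.0, 45.4 and 42.9 CPM in normal, 56.4, 71.7 and 57.6 in model, 56.3, 41.0 and 49.6 in QJSB and 58.4, 54.6 and 60.9 in leucogen. Every model and leucogen library was above normal. The rise in model was 0.46 (SE 0.14, adjusted p = 0.0296) and was lost without any of the normal libraries (largest adjusted p 0.0967). In leucogen against normal Rpl5 rose by 0.38 (SE 0.10, adjusted p = 0.00733), a call lost with all 12 libraries in 1 fit. Rpl11 was at 8.06 to 12.6 CPM in normal and 12.3 to 12.8 in model, which overlapped, and gave 0.33 (SE 0.21, adjusted p = 0.230).

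Of the 21 genes listed for Diamond-Blackfan anaemia, 7 were higher in model than in normal and 6 lower in leucogen than in model, with 0 in the opposite directions. That is 33.3% and 28.6% of the list, beside 34.6% of all members tested in each comparison and 19.7% and 13.3% of all genes. The 7 include Rpl26, whose libraries overlapped. The list held both ends of the range: Rps26, Rps28 and Rpl8 moved, while Rpl31, Rpl35, Rps24 and Rpl15 did not pass in either comparison. Rpl8 was at 192 CPM ± 2.75 in normal, 326 ± 92.9 in model, 394 ± 22.4 in QJSB and 156 ± 35.8 in leucogen (SD, n = 3). It gave 0.77 in model against normal (adjusted p = 0.0130) and -1.06 in leucogen against model (adjusted p = 0.0126), the latter lost without leucogen 1 or leucogen 3 (largest adjusted p 0.0653). Rps28 gave 0.67 and -0.97, both lost on leaving out single libraries (any normal library for the former, leucogen 3 for the latter, largest adjusted p 0.0627).

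Among the 8 genes whose proteins line the exit tunnel, 3 were higher in model and 2 lower in leucogen, beside 19.7% and 13.3% of all genes. One of the 3 was Rpl26, whose libraries overlapped and whose call was lost without single libraries. Rpl4, at the narrow part of the tunnel, was at 743, 730 and 631 CPM in normal, 1088, 1127 and 1223 in model, 1105, 1115 and 1145 in QJSB and 552, 728 and 694 in leucogen. The QJSB libraries differed little among themselves, and neither model nor QJSB overlapped with normal or leucogen. Rpl4 rose by 0.71 (SE 0.13, adjusted p = 0.00306) in model against normal and gave -0.79 (SE 0.16, adjusted p = 0.00893) in leucogen against model. With 83.5% unique words, it is among the members whose reads are least shared. Rpl19 was lower in leucogen at -0.84 (adjusted p = 0.00596). Rpl31 and Rpl35 gave 0.13 and 0.21 in model against normal and passed no comparison of the 6.

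Of the 7 genes listed as paralogs, Rpl10l, Rpl39l, Rpl3l and Rps4l were low. Rpl7l1, Rps27l and Rpl22l1 held 0.473%, 0.419% and 0.133% of the counts on members. Rpl10l had 0 counts in every library, Rpl39l had 1 and 2 counts in normal 1 and normal 3 and 0 elsewhere, and Rpl3l had 1 to 18 counts, so these 3 were not tested in any comparison. Rps27l, a target of p53, was at 52.4 CPM ± 9.06 in normal, 69.2 ± 10.4 in model, 50.7 ± 17.2 in QJSB and 54.0 ± 2.80 in leucogen, and gave 0.41 in model (adjusted p = 0.0952). Rpl7l1, which acts in assembly of the large subunit, rose by 0.46 (SE 0.13, adjusted p = 0.0217) in model against normal, a call lost without any of the normal libraries (largest adjusted p 0.089). Rpl22l1 gave 0.26 (adjusted p = 0.218) in the same comparison, and 0.01 in leucogen against normal, where Rpl22 gave 0.78.

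Rpl26, which binds the mRNA of p53 and lies at chr11:68901583-68906989, had a pattern of its own. Its counts were 19, 27 and 41 in normal, 3352, 3770 and 42 in model, 39, 2559 and 40 in QJSB, and 41, 2644 and 2054 in leucogen. The libraries thus fell into 7 with at most 42 counts and 5 with at least 2054, with nothing between them and with both kinds in each group given cyclophosphamide. The range within a group reached 6.52 on the log2 scale, larger than for any other member. Model against normal gave 6.25 (SE 1.65, adjusted p = 0.0278) although the groups overlapped, and the call was lost without model 1 or any of the normal libraries (largest adjusted p 0.103). In leucogen against normal it gave 6.02 (adjusted p = 0.0486), lost without any normal library, leucogen 2 or leucogen 3 (largest adjusted p 0.15). Without Rpl26, the summed share of members was 1.05% to 1.68% in place of the values above for the 9 libraries with cyclophosphamide, and the log2 ratio of model to normal was 0.58 in place of 0.59. The neighbouring gene Odf4, chosen after its values were seen, had 4, 5, 7 and 6 counts in model 2, QJSB 2, leucogen 2 and leucogen 3 and 0 in the other libraries, model 1 included.

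**Figure D5:**
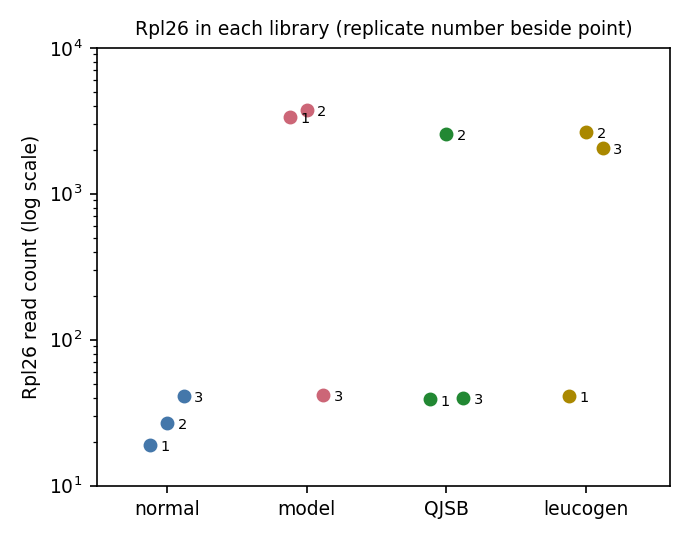
Read counts of Rpl26 (log scale) in each library by group, with the replicate number beside each point. Counts lie either at 19 to 42 or at 2054 to 3770, and the higher level is found in model 1 and 2, QJSB 2, and leucogen 2 and 3.

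Genes around the ribosome gave a setting for these values. Their counts stand beside 19.7% of all genes higher and 21.9% lower in model than in normal, and 13.8% higher and 13.3% lower in leucogen than in model. Of ribosomal proteins under other names, Fau at 0.87 (SE 0.12, adjusted p = 0.000797) and Rack1, listed as Gnb2l1, at 0.53 (SE 0.15, adjusted p = 0.0222), were higher in model than in normal. Fau, fused to a ubiquitin-like protein, was at 117 CPM ± 5.57 in normal, 212 ± 21.2 in model, 238 ± 26.2 in QJSB and 117 ± 22.9 in leucogen (SD, n = 3). In leucogen against model Fau gave -0.86 and Rack1 -0.79 (adjusted p = 0.00774 and 0.00984). These calls were lost without leucogen 3, and that of Rack1 in model without normal 2 or normal 3 (largest adjusted p 0.0898).

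The list of mRNAs known to carry the same pyrimidine run held 19 genes, of translation factors and of other proteins. Of these, 11 were higher and 0 lower in model than in normal, with a median of 0.47. In leucogen against model 12 were lower, with a median of -0.78. At the ends were Eef1a1, the factor that delivers tRNAs, at 1.09 (SE 0.22, adjusted p = 0.00443) and Eif3l at 0.94 (SE 0.19, adjusted p = 0.00456), against Pabpc1 at -0.21 and Eef1d at -0.21, which did not pass. In leucogen against model, Eif3l gave -1.39 (SE 0.21, adjusted p = 0.00385) and the translocation factor Eef2 -1.20 (SE 0.27, adjusted p = 0.0134), against Tpt1 at 0.18 and Eif4a2 at 0.40, not past the test.

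Of 57 genes of ribosome assembly, 28 were higher and 1 lower in model than in normal, with a median of 0.53, and 32 were lower and 0 higher in leucogen than in model, with a median of -0.61. Rrp1b at 1.21 and Nle1 at 1.19 led in model (adjusted p = 0.000321 and 0.00273), while Ubtf, which drives RNA polymerase I, was lower at -0.54 (adjusted p = 0.0353) and Emg1 gave -0.22 (adjusted p = 0.25). In leucogen, Fbl, the methyltransferase of ribosomal RNA, at -1.67 (SE 0.22, adjusted p = 0.00261) and Nop10 at -1.27 were lowest, and Nop58 at 0.17 and Riok1 at 0.18 highest. The 77 mitochondrial ribosomal protein genes went alongside, with 24 higher and 1 lower in model than in normal and 1 higher and 32 lower in leucogen than in model. Between QJSB and model 0 of the 57 assembly genes were called, with a median of -0.26, as were 0.0% of all genes. Between QJSB and normal 9 (15.8%) were higher and 3 (5.26%) lower, where 22.1% and 23.2% of all genes were.

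Of 16 regulators of ribosomal protein genes, 2 were higher and 3 lower in model than in normal, with a median of 0.07. Larp1, which binds the pyrimidine run, rose by 1.12 (SE 0.22, adjusted p = 0.00431) and Eif4ebp1 by 0.80 (SE 0.27, adjusted p = 0.0426), and Gabpb1 gave -0.74 and Max -0.41. In leucogen against model, Eif4ebp2 gave -0.82 and Larp1 -0.78 (adjusted p = 0.0345), and Rps6kb1, a kinase of Rps6, 0.59 (adjusted p = 0.0209) and Max 0.40. Of 11 genes of ribosome surveillance and its p53 branch, 1 was higher and 1 lower in model. The lower was Rnf10 at -1.33 (SE 0.12, adjusted p = 9.33e-05) and the higher G3bp1 at 0.51 (SE 0.17, adjusted p = 0.0413), while Cdkn1a gave 0.71 (adjusted p = 0.0517) and Mdm2 -0.28 (adjusted p = 0.14). In leucogen against model Mdm2 was higher at 0.62 (adjusted p = 0.0129), and Cdkn1a at -0.88, Usp10 at -0.74, G3bp1 at -0.70 and Trp53 at -0.73 were lower, with Nemf at 0.36 not past the test. Trp53 was named after its values were seen. The calls of Ubtf, Gabpb1, Max, Eif4ebp1 and G3bp1 in model and of Eef2, Eif4ebp2, Larp1, Rps6kb1, Cdkn1a, Usp10 and Mdm2 in leucogen were lost under at least 1 alternative.

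Among 10428 other genes with a mean of at least 100 counts, the log2 CPM most like the median of the members over the 12 libraries belonged to Slc25a17, a peroxisomal carrier, with Pearson's r of 0.96. It was followed by Tnfrsf1b, a receptor of tumour necrosis factor, with r of 0.93 and Pdha1, a subunit of pyruvate dehydrogenase, with r of 0.92. Slc25a17 was at 38.7 CPM ± 3.81 in normal, 52.9 ± 1.20 in model, 54.5 ± 3.39 in QJSB and 39.9 ± 2.03 in leucogen (SD, n = 3). These correlations describe the shared order of the groups in these libraries.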

How the data were processed

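Total RNA of bone marrow cells was sequenced in 12 libraries, 1 per mouse, after removal of ribosomal RNA, from strand-specific libraries. Per the study's methods the authors used Seqtk to filter reads and Hisat2 for alignment against GRCm38.p4. The counting program and its treatment of reads matching several genes are not given in the sources used here. The deposited table holds raw read counts per gene and the authors' FPKM values for 34745 genes, of which 11677 have no count. Library totals were 11172547 to 18545198 counts. The headings Blank, Model, Positive and Stilbene were taken, by meaning and elimination, for normal, model, leucogen and QJSB in this order. As a check, group means computed from the counts were compared with base means that the study listed for its comparisons: at least 298 of 300 genes lay within 1% as read, and at most 10 under any other pairing. These listed means were used for nothing else.

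Deposited counts were tested for each pair of groups with edgeR 4.0.16 (TMM, filterByExpr, robust quasi-likelihood test) in R 4.3.3, with Benjamini-Hochberg adjustment over all genes tested and a threshold of 0.05. In all 6 comparisons 80 members were tested, and Rps4l in 5. Summed shares were compared by exact permutation tests. Alternatives were DESeq2 1.42.0, other scalings and filters, all libraries in 1 fit, limma 3.58.1 on log2(FPKM + 0.1) of the deposited FPKM, a replicate block and leaving out each library. The fits were tested on simulated data. Members and gene lists were chosen with earlier results of these data known. Named are, for model against normal, leucogen against model, leucogen against normal and QJSB against model, the 5 highest and 5 lowest members by log2 fold change, up to 4 further members of each role list by mean FPKM, the 5 highest and lowest by mean FPKM, the members not tested, ribosomal proteins under other names, the 2 highest and 2 lowest genes of each further list and the 3 genes most alike. Other genes were named after their values were seen. Some genes that this rule names are not reported here, though they remain in the fits and counts. Same-numbered libraries correlated over 0.1 in all 3 pairs for QJSB with model (0.472, 0.155 and 0.108) and QJSB with leucogen (0.197, 0.159 and 0.114). These values are over the deviations of 14557 genes from the group means, and the other 4 comparisons did not reach this. Every QJSB library correlated most with the leucogen library of its own number. That did not hold for QJSB with model, so a pairing by number is doubtful there.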

Additional observations from a re-analysis of the deposited data

How the results depend on the processing

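The median log2 fold change of the members kept its sign under the alternatives run in each comparison except leucogen against normal, where it lies near 0. There the balance of calls, 16 higher and 7 lower, became 11 and 13 with limma on FPKM, 12 and 12 with at least 10 counts in every library, 9 and 10 without normal 3 and 15 and 15 without leucogen 2. With total counts in place of TMM, which moved the median of all genes by 0.12 between model and normal and by -0.17 between leucogen and model, 43 members were called in model against normal, and the medians were 0.55 for that comparison, -0.22 for QJSB against model, -0.53 for leucogen against model and 0.30 for QJSB against leucogen. With limma on FPKM they were 0.54, -0.22, -0.51 and 0.29. All 12 libraries in 1 fit gave 15 calls in leucogen against normal. In leucogen against model, the 0 members higher in leucogen became 2 with DESeq2, 2 with all 12 libraries in 1 fit and 1 without a filter. It became 1 without leucogen 2 and 4 without model 2, and in these fits 24 to 35 were lower. In QJSB against normal, the 0 members lower became 2 without QJSB 1, beside 34 higher. The shares of all genes called under the alternatives of this section are not reported here, so these counts have no background beside them.

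The GC fits and the restriction to members with unique words were added after the data were seen. Removing the GC trend also re-centred each library's mean log level on top of TMM, so these fits change the scaling as well. The median of all genes moved to 0.24 in model against normal, 0.25 in QJSB against normal and 0.21 in leucogen against normal. With the GC trend removed, calls were 51 in model against normal and 38 in leucogen against normal (36 higher and 2 lower). The medians were 0.63 and 0.29, with 0.51 for QJSB against normal and 0.12 for QJSB against leucogen. With the replicate block and the GC trend removed together, 50 members were called in model against normal, and the medians were 0.63 for that comparison, -0.31 for leucogen against model, 0.49 for QJSB against normal, 0.29 for leucogen against normal and 0.12 for QJSB against leucogen. Among only the members with at least 50% unique words, fewer genes being tested, the calls were 14, 14, 14, 10 and 16 in model against normal, leucogen against model, QJSB against normal, leucogen against normal and QJSB against leucogen, and the medians -0.49 for leucogen against model and 0.48 for QJSB against leucogen.

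Leaving out 1 library gave 18 to 30 calls in model against normal, 10 to 31 in leucogen against model, 23 to 36 in QJSB against normal, 10 to 30 in leucogen against normal and 20 to 39 in QJSB against leucogen, with medians of 0.35 to 0.46, -0.45 to -0.30, 0.17 to 0.29 (QJSB against leucogen) and -0.074 to 0.053 (leucogen against normal). The log2 ratio of summed shares was -0.68 on FPKM and -0.64 without Gm26917 and mitochondrial genes for leucogen against model, and 0.52 and 0.50 for QJSB against leucogen. With the unique members only it was -0.051 for QJSB against model, 0.61 for QJSB against normal and 0.58 for QJSB against leucogen. The replicate block gave 0 calls in QJSB against model and 34 in QJSB against leucogen, with medians of -0.13 and 0.23. It gave 28, 26, 29 and 22 calls in model against normal, leucogen against model, QJSB against normal and leucogen against normal. No count changed by more than 1.5 times. Libraries matched best by their own number only in QJSB against leucogen.

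Values near 0 changed sign, in the GC fits beside the shift of all genes given above. In model against normal, Rpl15 was 0.15 with the GC trend removed and 0.16 with the block as well, Rps23 0.17 and 0.19, Rpl21 0.22 and 0.21, Pabpc1 0.091 and 0.031, and Mdm2 0.018 and 0.0088. Rps23 was 0.027 and Rpl21 0.056 with limma, and Rpl21 0.087 with total counts. On leaving out single libraries, values ran from -0.31 to 0.057 for Rps23, -0.17 to 0.14 for Rpl21, -0.13 to 0.24 for Rps27, -0.065 to 0.39 for Rpl3 and -0.46 to 0.018 for Pabpc1. Nop58 in leucogen against model was -0.15 in both GC fits, and Rps4l in QJSB against model ranged from -0.31 to 0.80 on leaving out 1 library. The cause of these changes was not tested.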
